A study of Rattus norvegicus with 43 samples.

Results

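Pck1, Fbp1, Pklr, Slc2a2 and Aldoc encode a glucose transporter and enzymes of glycolysis and gluconeogenesis, and their transcripts were followed in liver, lung and mammary gland of rats given retinoids. They were found by gene symbol in the array's annotation, which gave 6 probe sets of 8740 and 5 genes of 4736. Each gene had 1 probe set except Aldoc, which had 2 (M63656_s_at and X06984cds_s_at). All rats were female Sprague-Dawley, an outbred strain, aged 100 days at the start and treated for 7 days. Targretin is bexarotene, which binds retinoid X receptors, and reached the rats by gavage at 60 mg per kg of body weight. 9cRA (9-cis retinoic acid, which binds retinoic acid and retinoid X receptors) was given at 100 mg per kg diet, and 4HPR (4-hydroxyphenylretinamide, a synthetic retinoid amide) at 782 mg per kg diet. The remaining rats received diet only; doses and routes differ between the agents, and the labels name no gavage control. Of the 12 groups of organ and agent, 7 had 4 arrays and 5 had 3 arrays (Targretin in each organ, 4HPR mammary gland and diet lung), 43 in all. The labels do not say that arrays came from separate rats, so p-values measure only the spread between arrays.

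Glycolysis breaks glucose down to pyruvate, and gluconeogenesis builds glucose from pyruvate, lactate, glycerol and amino acids, mainly in liver. The pathways share most steps and part at a few that run one way only, where hormones, feeding and nuclear receptors act on enzyme amounts. Pck1 (cytosolic phosphoenolpyruvate carboxykinase) and Fbp1 (fructose-1,6-bisphosphatase) drive gluconeogenesis at such steps. Pck1 also serves glyceroneogenesis in fat cells, and the mammary gland lies in a fat pad. Pklr is the liver and red cell pyruvate kinase, the last step of glycolysis. Slc2a2 encodes GLUT2, the main glucose transporter of hepatocytes. Aldoc is an aldolase best known from brain.

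The 250 bases before the RefSeq start of each gene (assembly GRCr8) were searched on both strands for 5 motifs. The start is the one RefSeq's promoter table uses; for Slc2a2, Pklr and Fbp1 the window before it lies inside the gene's annotated span. These were AGGTCA (a half-site of many nuclear receptors, retinoid receptors among them), AGGTCANAGGTCA (half-sites in direct repeat), TTACGTCA (the cyclic AMP response element known from Pck1), CACGGGNNNNNCCCGTG (the carbohydrate response element known from Pklr) and CACGTG (the E-box). The sequences of the 3 members with a match are shown, and capitals mark the matches. Slc2a2 fell with Targretin in liver and mammary gland. Pck1 and Pklr did not pass in any comparison of agents with diet within an organ. Fbp1 also changed with Targretin but held no match. A link between matches and changes was not tested.
Slc2a2 promoter, chr2:113540120-113540369, plus strand: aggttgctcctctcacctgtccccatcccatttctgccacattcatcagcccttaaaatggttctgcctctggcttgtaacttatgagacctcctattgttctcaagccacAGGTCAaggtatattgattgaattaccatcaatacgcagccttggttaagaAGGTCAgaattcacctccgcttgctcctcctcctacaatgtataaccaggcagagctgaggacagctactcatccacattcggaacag
Pck1 promoter, chr3:182348322-182348571, plus strand: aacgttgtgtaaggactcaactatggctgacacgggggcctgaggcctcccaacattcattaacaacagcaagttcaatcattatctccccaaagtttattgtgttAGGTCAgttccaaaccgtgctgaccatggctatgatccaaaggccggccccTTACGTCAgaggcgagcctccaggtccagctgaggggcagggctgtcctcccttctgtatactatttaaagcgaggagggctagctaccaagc
Pklr promoter, chr2:176841014-176841263, plus strand: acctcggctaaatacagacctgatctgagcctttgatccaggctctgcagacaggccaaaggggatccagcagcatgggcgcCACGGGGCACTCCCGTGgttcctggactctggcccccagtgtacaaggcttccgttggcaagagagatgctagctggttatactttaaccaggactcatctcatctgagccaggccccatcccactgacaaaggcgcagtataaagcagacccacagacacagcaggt
Slc2a2 held AGGTCA at bases -139 to -134 and -88 to -83 from its start, and Pck1 held it at -144 to -139; of 33469 promoters of this length, 14.1% hold it. Pck1 also held TTACGTCA at -93 to -86, which 0.750% of promoters hold. Pklr held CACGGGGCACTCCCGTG at -168 to -152, and it was the 1 promoter of 33469 with this motif, which was searched because it is known from this gene. AGGTCANAGGTCA, found in 0.0508% of promoters, and CACGTG, found in 5.59%, were not found in the windows of the 5 genes, and the Fbp1 and Aldoc windows held none of the 5 motifs. A match is a run of letters, not a tested site. In the same assembly Slc2a2 spans chr2:113537884-113568422, Pklr chr2:176840779-176849637, Pck1 chr3:182348572-182354521, Fbp1 chr17:2212941-2235749 and Aldoc chr10:63715544-63719133.

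Values are MAS5 signals, a linear brightness scaled by the authors so that the trimmed mean of each array was between 1501.78 and 1503.29. Median signals per array ranged over 346.9 to 441.4 for mammary gland, 265.9 to 389.7 for liver and 466.2 to 633.3 for lung. Testing in an organ required a signal above the array's 40th percentile on 3 or more of its arrays, and fold changes are log2 of signal plus 38.1, which understates changes of low signals. By that rule Pck1 and Slc2a2 were tested in liver and mammary gland, Fbp1 in all 3 organs and Pklr in liver. Aldoc was tested in lung and mammary gland by M63656_s_at and in mammary gland by X06984cds_s_at. Passing means an adjusted p under 0.05 by limma with Benjamini-Hochberg adjustment over all probe sets tested. Hepatocyte markers (14 genes, Alb, Ttr and Ahsg among them) summed to between 627436 and 735058 in diet liver, 6398 and 45877 in diet lung and 101455 and 152960 in diet mammary gland, so RNA of liver-type genes was measured in mammary gland too.

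On diet alone, Pck1, Fbp1, Pklr and Slc2a2 were highest in liver, and the M63656_s_at probe set of Aldoc was highest in mammary gland. Pck1 averaged 20964 ± 4829 in liver (SD, n = 4), 6658 ± 2010 in mammary gland (n = 4) and 69.7 ± 41.2 in lung (n = 3). Its liver and mammary signals did not overlap, and the median mammary signal was 29.7% of the mean liver signal. Fbp1 averaged 32701 ± 865 in liver, 1196 ± 231 in mammary gland and 554 ± 340 in lung. For Fbp1 every diet mammary array lay above every diet lung array, but the call of mammary gland over lung rests on 1 array. The difference was 1.25 (log2, limma adjusted p = 0.014) and fell to 0.69 (adjusted p = 0.221) without diet lung 3. Slc2a2 averaged 11808 ± 1121 in liver, 254 ± 36.0 in mammary gland and 13.1 ± 14.7 in lung. Pklr averaged 1190 ± 241 in liver, 182 ± 88.8 in mammary gland and 93.3 ± 35.7 in lung, where the mammary gland and lung levels did not differ beyond their spread (0.68, adjusted p = 0.127; 0.92, adjusted p = 0.0262, after quantile normalization and 0.77, adjusted p = 0.0375, with array weights).

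Aldoc ran the other way. With M63656_s_at its signal averaged 4064 ± 963 in mammary gland, 377 ± 90.9 in lung and 65.5 ± 58.5 in liver, and all 3 pairs of organs passed. With X06984cds_s_at the means were 253 ± 141 in mammary gland, 119 ± 92.8 in lung and 138 ± 60.4 in liver, and no pair passed. Both probe sets had their highest mean in mammary gland, but organs differed beyond their spread only by M63656_s_at. The fit of all arrays took every probe set that met the signal rule for testing in any organ. Pck1 and Slc2a2 missed it in lung, Pklr in lung and mammary gland, Aldoc in liver and its X06984cds_s_at also in lung. These entered through organs with a higher signal, so the filter itself favored a difference between organs. In that fit, 5 of 6 probe sets passed for liver minus lung, where 53.8% of all probe sets passed. For mammary gland minus lung 4 of 6 passed, beside 41.9% of all, and for mammary gland minus liver 5 of 6, beside 57.8% of all. Differences for liver minus lung were 7.65 for Pck1, 5.99 for Fbp1, 3.24 for Pklr, 7.89 for Slc2a2 and -2.12 for Aldoc (M63656_s_at). The median over all probe sets was itself -0.37 in that contrast and moved by 0.28 with quantile normalization. Relative to it the same differences were 8.01, 6.36, 3.60, 8.25 and -1.75.

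**Figure D1:**
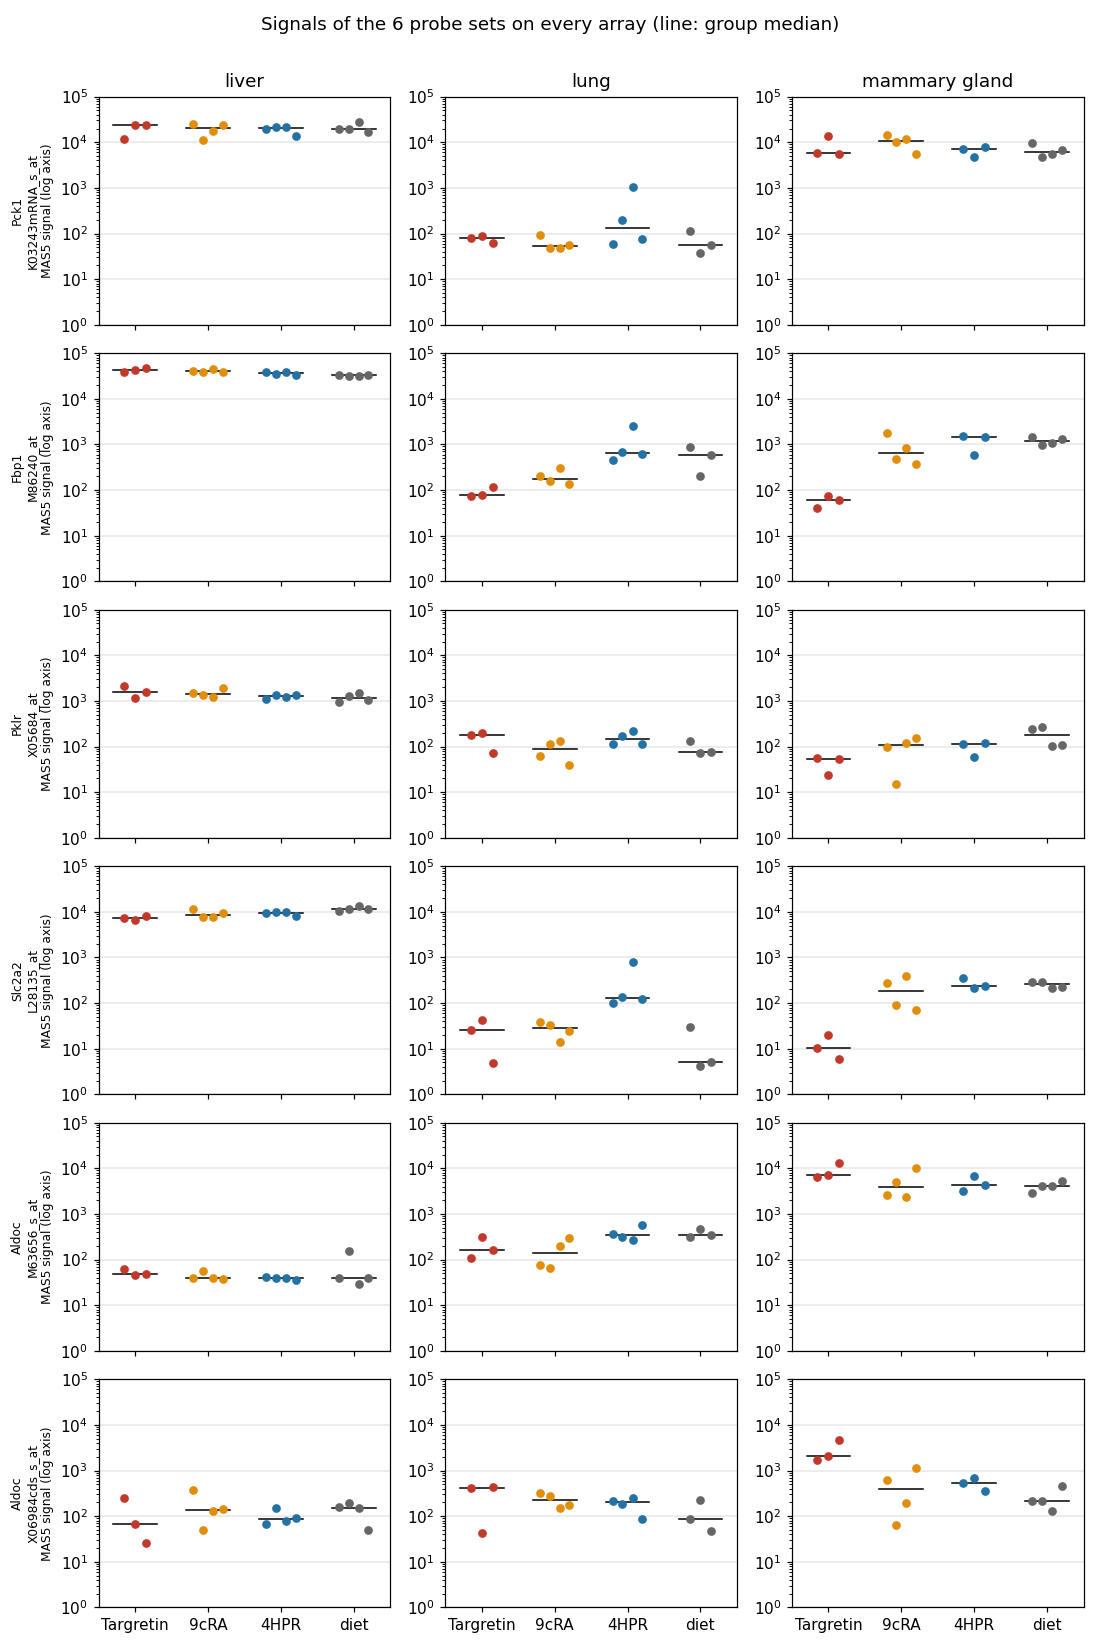
MAS5 signal (log axis) of the 6 probe sets on every array, by organ (columns) and agent (x axis), with a line at each group's median. Within mammary gland, Slc2a2 and Fbp1 sit lowest with Targretin, at 6.1 to 19.7 and 41.2 to 75.4, and Slc2a2 reaches 813.4 on 1 array of 4HPR lung.

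In liver, Targretin lowered Slc2a2 and raised Fbp1, and Pck1 and Pklr did not pass. Slc2a2 had signals of 7366.4, 6687.9 and 8206.6 with Targretin, against 10656.7, 11817.5, 13325.7 and 11431.4 on diet. Every Targretin array lay below every diet array, and the change was -0.67 ± 0.15 (log2, SE; limma adjusted p = 0.00621). It passed in all 14 alternatives, with changes of -0.74 to -0.60. Fbp1 had signals of 37872.3, 42732 and 47143.4 with Targretin, against 33153.2, 31781.4, 32197.4 and 33672 on diet. These did not overlap either, but the rise was small at 0.38 ± 0.11 (adjusted p = 0.0364). The call was lost without Targretin liver 2 (0.37, adjusted p = 0.111), without Targretin liver 3 (0.30, 0.147) and without any 1 of the diet livers 1 (0.38, 0.0685), 2 (0.36, 0.0761), 3 (0.37, 0.081) and 4 (0.39, 0.0595). Thus 2 of 4 tested members passed, while 11.1% of all probe sets did.

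With 9cRA and 4HPR in liver 0 of 4 members passed in limma, beside 5.16% of all probe sets with 9cRA and 2.78% with 4HPR; at an unadjusted p under 0.05 the counts were 2 and 1. Slc2a2 had signals of 11581.9, 7717.7, 7724.3 and 9249.4 with 9cRA, a change of -0.40 ± 0.14 (adjusted p = 0.109) in which 1 array lay inside the diet range. Without that array, 9cRA liver 1, the change was -0.52 and passed (adjusted p = 0.03). With 4HPR its signals were 9417.6, 9818.9, 9693.9 and 8231.6, all below the diet arrays, and the change was -0.34 ± 0.14 (adjusted p = 0.188). Fbp1 read 41337.6, 37997.5, 45491.9 and 38429.4 with 9cRA, all above the diet arrays, for a change of 0.32 ± 0.10 (adjusted p = 0.0856). That change was 0.31 with array weights (adjusted p = 0.049) and 0.05 after quantile normalization (adjusted p = 0.778). With 4HPR it read 38065, 34874.9, 38108.1 and 33229, which overlapped diet; the change was 0.14 ± 0.10 (adjusted p = 0.495) and was -0.09 after quantile normalization, which moved the median of all probe sets by 0.10 in this comparison.

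Pck1 and Pklr moved little in liver relative to their spread. Pck1 read 11566.5, 24022.8 and 24393.2 with Targretin, 24670.6, 11241.7, 17495.1 and 23745.7 with 9cRA and 20008.7, 21267.4, 21333.5 and 13934.9 with 4HPR, against 19551, 19766, 27887.7 and 16652.4 on diet. The groups overlapped throughout. Its changes were -0.12 with Targretin (95% interval -0.72 to 0.48), -0.16 with 9cRA (-0.72 to 0.40) and -0.13 with 4HPR (-0.68 to 0.43), so these intervals do not show that the level stayed the same. Each of these signs turned when single arrays were left out. Pklr read 2120.2, 1131.1 and 1558.9 with Targretin, 1525.1, 1344.4, 1236.8 and 1962.7 with 9cRA and 1090.7, 1320, 1242.4 and 1329.4 with 4HPR, against 951.3, 1284.5, 1483.6 and 1042.5 on diet. Its changes were 0.39 with Targretin (-0.06 to 0.85), 0.34 with 9cRA (-0.08 to 0.76) and 0.08 with 4HPR (-0.34 to 0.50).

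Between agents in liver, 0 of 4 members passed in limma for any of the 3 pairs, beside 5.72% of all probe sets for Targretin minus 9cRA, 7.87% for Targretin minus 4HPR and 0.164% for 9cRA minus 4HPR. At an unadjusted p under 0.05 the counts were 0, 2 and 0. For Slc2a2 the differences were -0.27 for Targretin minus 9cRA (95% interval -0.59 to 0.04, adjusted p = 0.404), -0.32 for Targretin minus 4HPR (-0.64 to -0.01, adjusted p = 0.206) and -0.05 for 9cRA minus 4HPR (-0.34 to 0.24, adjusted p = 0.905). For Fbp1 they were 0.06 (-0.17 to 0.29, adjusted p = 0.878), 0.24 (0.00 to 0.47, adjusted p = 0.219) and 0.18 (-0.04 to 0.39, adjusted p = 0.523). The Fbp1 difference of Targretin from 4HPR was 0.44 after quantile normalization and passed there (adjusted p = 0.00379). These agents were given at unlike doses and by unlike routes. The agents' comparisons with diet share the diet arrays.

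**Figure D2:**
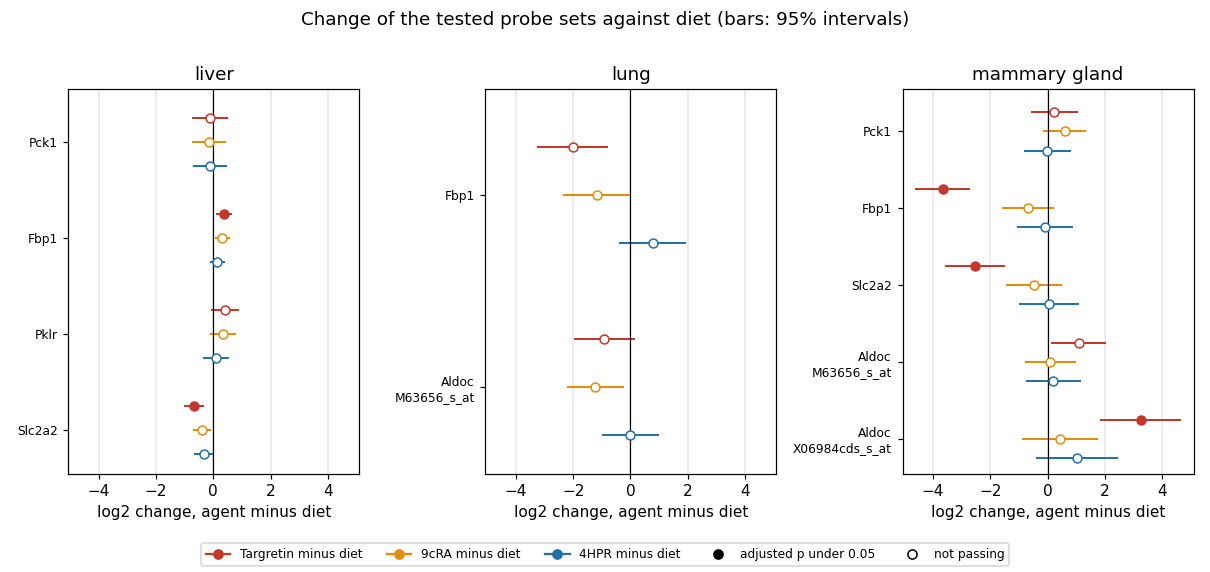
Log2 change of signal plus 38.1 (x axis) of the tested probe sets against diet in each organ, with 95% intervals; filled points pass at an adjusted p under 0.05. The changes that pass are Slc2a2 and Fbp1 with Targretin in liver, and Fbp1, Slc2a2 and Aldoc (X06984cds_s_at) with Targretin in mammary gland.

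In mammary gland, Targretin lowered Fbp1 and Slc2a2 and raised Aldoc on 1 of its 2 probe sets. Fbp1 had signals of 41.2, 75.4 and 59.7 with Targretin, against 1478.4, 961.2, 1061.3 and 1282 on diet. Every Targretin array was far below every diet array, and the change was -3.67 ± 0.44 (adjusted p = 7.53e-05). Slc2a2 had signals of 10.2, 19.7 and 6.1 with Targretin, against 283.8, 285.5, 216.9 and 228.7 on diet, a change of -2.54 ± 0.47 (adjusted p = 0.00388). No Targretin array reached the level of any diet array. All 3 Targretin arrays were under their 40th percentile for both genes, so these probe sets entered the test only through their higher signal in the other groups. Fbp1 and Slc2a2 passed in all 14 alternatives, with changes of -3.79 to -2.66 and of -2.69 to -1.30, both smallest with a pseudocount 4 times larger.

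Hepatocyte markers moved with them. Of the 14 markers, 13 fell with Targretin in mammary gland, with a median change of -3.50 beside 0.11 over all probe sets tested. Their summed signal was 20787 to 38065 with Targretin, against 101455 to 152960 on diet. Ttr (transthyretin) averaged 83.9 with Targretin and 13611 on diet, and Ahsg (fetuin-A) 92.8 with Targretin and 11800 on diet. As a percentage of the mean diet liver signal, mammary Fbp1 was 0.126 to 0.231 with Targretin and 2.94 to 4.52 on diet. Slc2a2 was 0.0517 to 0.167 with Targretin and 1.84 to 2.42 on diet, and the median hepatocyte marker 0.283 to 0.418 with Targretin and 4.22 to 7.98 on diet. Pck1, which fat cells express as well, was 26.5 to 65.4 with Targretin and 22.8 to 44.8 on diet. The part of the markers' RNA in the fall of Fbp1 and Slc2a2 was not tested. Where the liver-type RNA in the mammary samples came from was not tested either. In whole tissue, fewer cells of a type and less RNA per cell cannot be told apart.

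**Figure D3:**
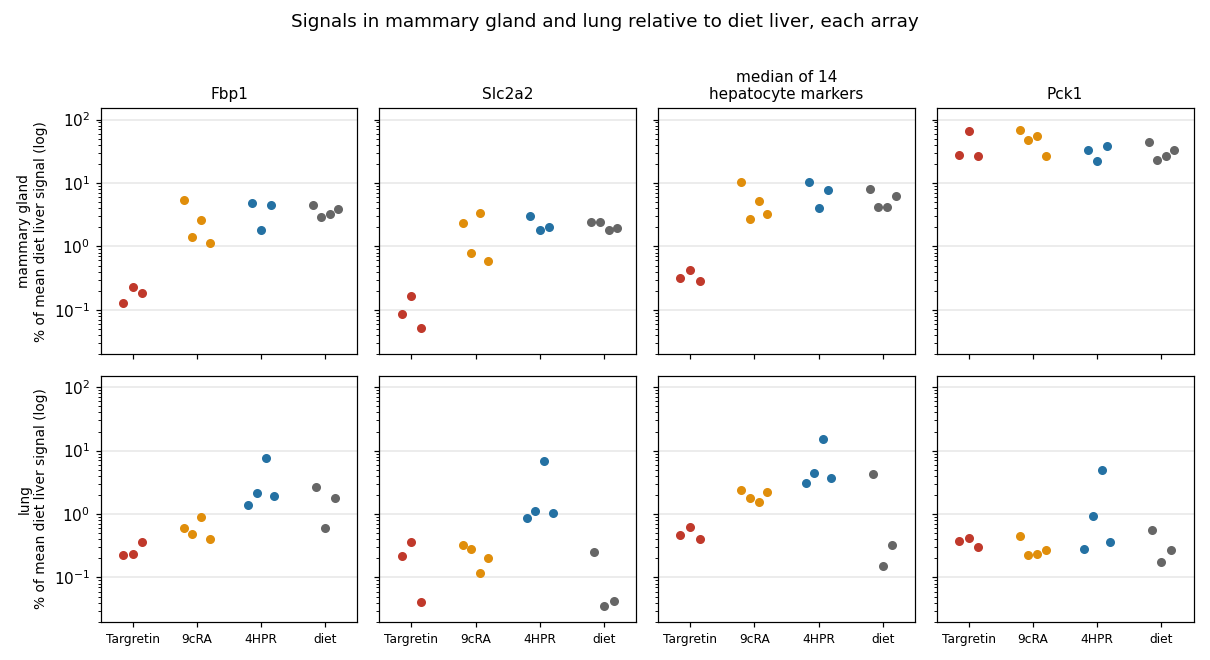
Signal in mammary gland (top) and lung (bottom) as a percentage of the mean diet liver signal (log axis) for Fbp1, Slc2a2, the median of 14 hepatocyte markers and Pck1, 1 point per array. In Targretin mammary gland the first 3 measures are below 0.5% on all 3 arrays, while Pck1 is at 26.5% to 65.4%.

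Aldoc rose with Targretin in mammary gland by X06984cds_s_at, with signals of 1659.2, 2054.6 and 4641.5, against 215.4, 211.4, 129 and 454.9 on diet. The arrays did not overlap, and the change was 3.25 ± 0.65 (limma adjusted p = 0.00598), which passed in all 14 alternatives with changes of 2.78 to 3.54. This probe set was above the 40th percentile on all 3 Targretin arrays and on 1 of 4 diet arrays. Its entry to the test thus leaned on the treated groups. By M63656_s_at the signals were 6567, 7034.4 and 13163 with Targretin, against 2815.6, 4133.8, 4142.9 and 5164.5 on diet. These did not overlap either, but the change of 1.09 ± 0.43 did not pass (adjusted p = 0.106; 0.0434 with only these groups in the fit). The probe sets ran in the same direction and differed in size. The highest Aldoc signal of both came from Targretin mammary gland 3, where 9 skeletal muscle markers summed to 68656, while they summed to 2390 to 4667 on the other 13 mammary arrays; without it, the X06984cds_s_at change still passed. Pck1 had signals of 5812.4, 13710 and 5545.6 with Targretin, against 9399.6, 4790, 5617.5 and 6824.5 on diet, and its change of 0.24 (-0.53 to 1.01, adjusted p = 0.694) did not pass. Adipocyte markers (9 genes) summed to 137851 to 204581 with Targretin and to 192625 to 275740 on diet, and 0 of 9 passed. Mammary epithelium markers (11 genes) summed to 263070 to 384463 with Targretin and to 163592 to 255169 on diet, without overlap, and 0 of 11 passed. On 9cRA mammary gland 4, the array with the second highest Aldoc signal by M63656_s_at, they summed to 529080. Nerve and glia markers (6 genes, 4 tested) summed to 17288 to 24979 with Targretin and to 34173 to 41829 on diet, and 0 rose and 1 fell. Their part in the Aldoc values was not tested. In all, 3 of 5 tested member probe sets passed, beside 13.1% of all probe sets.

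With 9cRA and with 4HPR in mammary gland, 0 of 5 member probe sets passed in limma and 0 at an unadjusted p under 0.05; over all probe sets the share that passed was 0% with each. Fbp1 read 1771.7, 468.1, 852.8 and 372.8 with 9cRA and 1562.7, 589.4 and 1466.9 with 4HPR, a wider spread than on diet. Slc2a2 read 275.6, 92.2, 397.1 and 69.7 with 9cRA and 358.2, 215 and 236.2 with 4HPR. Pck1 read 14445.3, 9960.8, 11638.4 and 5508.2 with 9cRA, which spans most of the range of all mammary arrays, and the change of 0.60 (-0.12 to 1.32, adjusted p = 0.352) did not pass; with 4HPR it read 6985.6, 4724.6 and 8005.5. Aldoc by X06984cds_s_at read 614.7, 63.6, 190.1 and 1113.2 with 9cRA and 520.9, 700.6 and 363.7 with 4HPR. By M63656_s_at it read 2558, 5148.2, 2413.1 and 10171.3 with 9cRA and 3218.2, 6776.4 and 4309.6 with 4HPR.

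Set directly against the other agents in mammary gland, Targretin stood apart for Fbp1 and Slc2a2, and for hepatocyte markers as well. These markers summed to 20787 to 38065 with Targretin, 56381 to 133512 with 9cRA and 84038 to 153474 with 4HPR. Their part in the differences between agents was not tested. For Fbp1 the difference was -2.99 ± 0.44 from 9cRA (adjusted p = 0.000772) and -3.58 ± 0.47 from 4HPR (adjusted p = 0.000188), and both passed in all alternatives tried. For Slc2a2 it was -2.60 ± 0.50 from 4HPR (adjusted p = 0.00716), which also held in all alternatives, and -2.07 ± 0.47 from 9cRA (adjusted p = 0.0281), which did not hold in 8 of 14. Among these, it was lost without Targretin mammary gland 1 (-2.05, adjusted p = 0.0818), 2 (-2.18, 0.0676) or 3 (-1.99, 0.0986), and without 9cRA mammary gland 1 (-1.88, 0.102) or 3 (-1.72, 0.0881). For Aldoc by X06984cds_s_at it was 2.81 ± 0.65 from 9cRA (adjusted p = 0.0312; lost in 7 of 14 alternatives, among them without Targretin mammary gland 3, at 2.38 and an adjusted p of 0.181) and 2.22 ± 0.70 from 4HPR (adjusted p = 0.0915; passing in 3 of 13 alternatives, at 0.0451 with a larger pseudocount, 0.00898 with array weights and 0.0145 with only these groups). Without Targretin mammary gland 1 or 2, or 9cRA mammary gland 2 or 3, the adjusted p of the Aldoc difference from 9cRA was 0.0547, 0.0832, 0.055 and 0.104. Thus 3 of 5 passed for Targretin minus 9cRA, beside 2.05% of all probe sets, and 2 of 5 for Targretin minus 4HPR, beside 4.23%. For 9cRA minus 4HPR 0 of 5 passed in limma, with 0 at an unadjusted p under 0.05, beside 0.0495% of all.

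In lung 0 of 2 tested probe sets passed against diet with any agent in limma; at an unadjusted p under 0.05 the counts were 1 with Targretin, 2 with 9cRA and 0 with 4HPR. Over all probe sets 2.39% passed with Targretin and 0% with 9cRA and with 4HPR. Fbp1 had signals of 75, 76.3 and 117.5 with Targretin, 199.7, 155.7, 298.8 and 134.5 with 9cRA and 448.1, 691.7, 2481.2 and 619.3 with 4HPR, against 876.7, 199.2 and 584.7 on diet. No Targretin or 9cRA array was above its 40th percentile, so Fbp1 entered the lung test through all 4 arrays of 4HPR and 2 of diet. The Targretin arrays lay below all others, and the change was -2.02 ± 0.57 (adjusted p = 0.0655; 0.046 with array weights). Against 4HPR the Targretin difference was -2.79 ± 0.53 (adjusted p = 0.0275), the 1 of 2 member probe sets that passed beside 1.45% of all. It was lost in 9 of 14 alternatives: the adjusted p was 0.0795 without 4HPR lung 3 (difference -2.29), 0.0811 without 4HPR lung 2, 0.0666 without 4HPR lung 4, 0.0817 without Targretin lung 1 and 0.0506 without Targretin lung 2. For Targretin minus 9cRA 0 of 2 passed (0 at an unadjusted p under 0.05), beside 0.0168% of all, and for 9cRA minus 4HPR 0 of 2 (2 at an unadjusted p under 0.05), beside 0%.

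Liver-type genes were uneven across the lung arrays. Hepatocyte markers summed to 8821 to 10445 with Targretin, 15716 to 22053 with 9cRA and 27208 to 150003 with 4HPR, against 6398 to 45877 on diet. The highest sum was on 4HPR lung 3, at 21.6% of the mean diet liver sum, and that array also had the highest lung signal of Fbp1, Pck1 (1043) and Slc2a2 (813.4). Without it, the Fbp1 change with 4HPR was 0.26, against 0.77 with it. Slc2a2, too low to be tested in lung alone, averaged 293 ± 347 with 4HPR and 13.1 ± 14.7 on diet. Their part in these lung values was not tested. Aldoc by M63656_s_at read 110.8, 307.3 and 159.2 with Targretin, 76.4, 65.7, 198.5 and 292.1 with 9cRA and 367.4, 319.4, 273.8 and 560.8 with 4HPR, against 307.1, 479.6 and 343.7 on diet. No Targretin or 9cRA array was above its 40th percentile for this probe set. It entered the lung test through 2 arrays of 4HPR and 2 of diet, groups where its signal was higher. All 9cRA arrays were below the diet arrays, at a change of -1.23 ± 0.45 (limma adjusted p = 0.392, and 0.0422 with array weights). The change with Targretin was -0.92 ± 0.48 (adjusted p = 0.262).

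A moderated F test over the 43 arrays asked if an agent's change against diet was unequal among the organs. With Targretin 4 of 6 probe sets passed, beside 10.6% of all. The test took every probe set that met the signal rule for testing in any organ. Of those passing, Pklr missed it in lung and mammary gland, Slc2a2 in lung, and Aldoc by X06984cds_s_at in liver and lung. These entered through organs where their signal was higher, so their changes elsewhere are between low signals. For Fbp1 the changes were -3.67 in mammary gland, 0.38 in liver and -2.02 in lung (adjusted p = 3.72e-05), and mammary gland minus liver was -4.04 ± 0.59. For Slc2a2 they were -2.54 in mammary gland, -0.67 in liver and 0.27 in lung (adjusted p = 0.00272). Mammary gland minus liver was -1.88 for Slc2a2 (adjusted p = 0.0255). That difference was lost in 4 of 20 alternatives, at -0.64 (adjusted p = 0.345) with a pseudocount 4 times larger, -1.79 (0.0717) without the arrays in doubt, -1.80 (0.06) without Targretin liver 3 and -1.79 (0.06) without Targretin mammary gland 3. For Aldoc by X06984cds_s_at they were 3.25, -0.40 and 0.87 in the same order (adjusted p = 0.0135). For Pklr they were -1.34, 0.39 and 0.47 (adjusted p = 0.0196), where the mammary signals were low in both groups, at 24.1 to 55.4 with Targretin and 101.4 to 268.9 on diet. The Pklr call was lost without Targretin mammary gland 2 (adjusted p = 0.0782) and without diet mammary gland 2 (0.0598), and the Aldoc call without Targretin mammary gland 3 (0.0641). Pck1 (adjusted p = 0.924) and Aldoc by M63656_s_at (0.0571) did not pass. With 9cRA 0 of 6 passed, beside 0.231% of all, and with 4HPR 0 of 6, beside 0%.

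The other genes of glucose handling were read from 5 lists of enzymes, transporters and regulators, which included the members. In liver with Targretin, 2 genes rose and 2 fell of 9 tested for gluconeogenesis, 1 rose and 0 fell of 18 for glycolysis, 0 rose and 1 fell of 5 for glucose transport, 1 rose and 0 fell of 7 for glycogen, and 2 rose and 2 fell of 13 regulators. Together 11 of 52 list genes passed, beside 11.1% of all probe sets. The median changes of these lists were 0.15, 0.18, -0.45, -0.14 and 0.29, beside -0.02 over all probe sets tested. Gckr, the glucokinase regulatory protein, rose by 0.77 ± 0.16 (adjusted p = 0.00446), with a mean of 5214 ± 437 with Targretin and 3063 ± 404 on diet. Gcgr, the glucagon receptor, rose by 0.63 ± 0.14 (adjusted p = 0.00766). Both passed in all 14 alternatives. Onecut1, a liver transcription factor, fell by 2.32 on the log2 scale (limma adjusted p = 0.0128), with a mean of 301 ± 200 with Targretin and 1378 ± 112 on diet. Without Targretin liver 3 the change was -1.64 (adjusted p = 0.0824).

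Slc37a4, the glucose-6-phosphate carrier of the last gluconeogenic step, fell by 0.78 on the log2 scale, with a mean of 4300 ± 316 with Targretin and 7614 ± 2342 on diet. Its other probe set was at -0.63 and did not pass (limma adjusted p = 0.0578). Pfkl, the liver phosphofructokinase of glycolysis, rose by 1.03 and Pygl, which releases glucose from glycogen, by 0.65. Nr3c1, the glucocorticoid receptor, fell by 0.87 on the log2 scale by M14053_at, while its other probe set was at 0.47 (adjusted p = 0.545). These 4 calls had adjusted p-values of 0.0124 to 0.0152 and were lost, at 0.0532 to 0.0887, without Targretin liver 1 or without Targretin liver 2. Got1, an aspartate aminotransferase that carries carbon to the cytosol, fell by 0.97 on the log2 scale (adjusted p = 0.0217; lost without Targretin liver 2, diet liver 2 or diet liver 3, at up to 0.147). Fbp2, the muscle form of fructose-1,6-bisphosphatase, rose by 1.26 at a low signal (366 ± 60.5 with Targretin, 132 ± 38.4 on diet). The limma adjusted p was 0.0414 and the call was lost in 8 of 14 alternatives. Its diet mean lay below the 40th percentile of every liver array (164.0 to 257.5), and its Targretin mean lay above. Its entry to the test thus leaned on arrays with a higher signal. With 9cRA, Gckr (0.66), Pfkl (0.85), Mdh1 (0.52) and Got1 (-0.92) passed of 52 list genes, and with 4HPR Nr3c1 (-0.85) passed of 52; the shares over all probe sets were 5.16% and 2.78%. Each of these 5 calls was lost in at least 1 alternative. The Nr3c1 call with 4HPR was lost in 10 of 15, and its other probe set was at 0.32 (adjusted p = 0.693).

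In mammary gland with Targretin, 5 of 17 glycolysis genes rose and 2 fell, with a list median of 0.53 beside 0.11 over all probe sets. Together 12 of 49 list genes passed, beside 13.1% of all probe sets. Aldoc was counted here by M63656_s_at, its brighter probe set, and so as not passing. Of 9 gluconeogenesis genes 0 rose and 1 fell (Fbp1). Of 6 glucose transport genes 1 rose and 1 fell, of 7 glycogen genes 0 rose and 1 fell, and of 10 regulators 0 rose and 1 fell. Ldhb, the heart-type lactate dehydrogenase subunit, fell by 1.20 on the log2 scale (adjusted p = 0.00132), with a mean of 8542 ± 2548 with Targretin and 19397 ± 3364 on diet, and this was the 1 list gene beside the members that passed in all 14 alternatives; its other probe set was at -0.61 (adjusted p = 0.131). Hk1, a hexokinase, rose by 0.84 (adjusted p = 0.0168), Pfkl by 1.72 (0.0182) and Aldoa, the muscle-type aldolase, by 2.03 (0.0202). Pfkfb4 and Pfkfb2, which set the fructose-2,6-bisphosphate that drives phosphofructokinase, rose by 0.99 (0.0211) and 1.79 (0.025). Pfkfb2 averaged 551 ± 192 with Targretin, and 137 on diet, 141 with 9cRA and 179 with 4HPR. Those last means lay below the 40th percentile of every mammary array (211.3 to 287.9), so its entry to the test leaned on the Targretin arrays. Gyg1 (-0.77, the primer of glycogen), Slc5a1 (0.83, a sodium-glucose transporter), Pfkp (-0.63, the platelet phosphofructokinase) and Gckr (-0.99) passed with adjusted p-values of 0.0252 to 0.0484.

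Of these 10 list genes, 7 lost their call without Targretin mammary gland 3, the array with the high muscle marker sum; Aldoa then stood at 1.84 (adjusted p = 0.0715) and Pfkl at 1.66 (0.0604). Leaving out Targretin mammary gland 1 or 2 lost 8 and 6 of them, and leaving out diet mammary gland 1, 2, 3 or 4 lost 1, 5, 8 and 1. For Hk1, Slc5a1, Pfkp, Gyg1 and Pfkfb2, other probe sets of the same gene did not pass and stood at -0.04, -0.03, 0.36, 0.81 to 0.87 and -0.60. With 9cRA and 4HPR in mammary gland, and with any agent in lung, 0 list genes passed in limma. At an unadjusted p under 0.05 the counts were 6 and 1 of 49 in mammary gland with 9cRA and 4HPR, and 12, 4 and 0 of 46 in lung with Targretin, 9cRA and 4HPR.

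**Figure D4:**
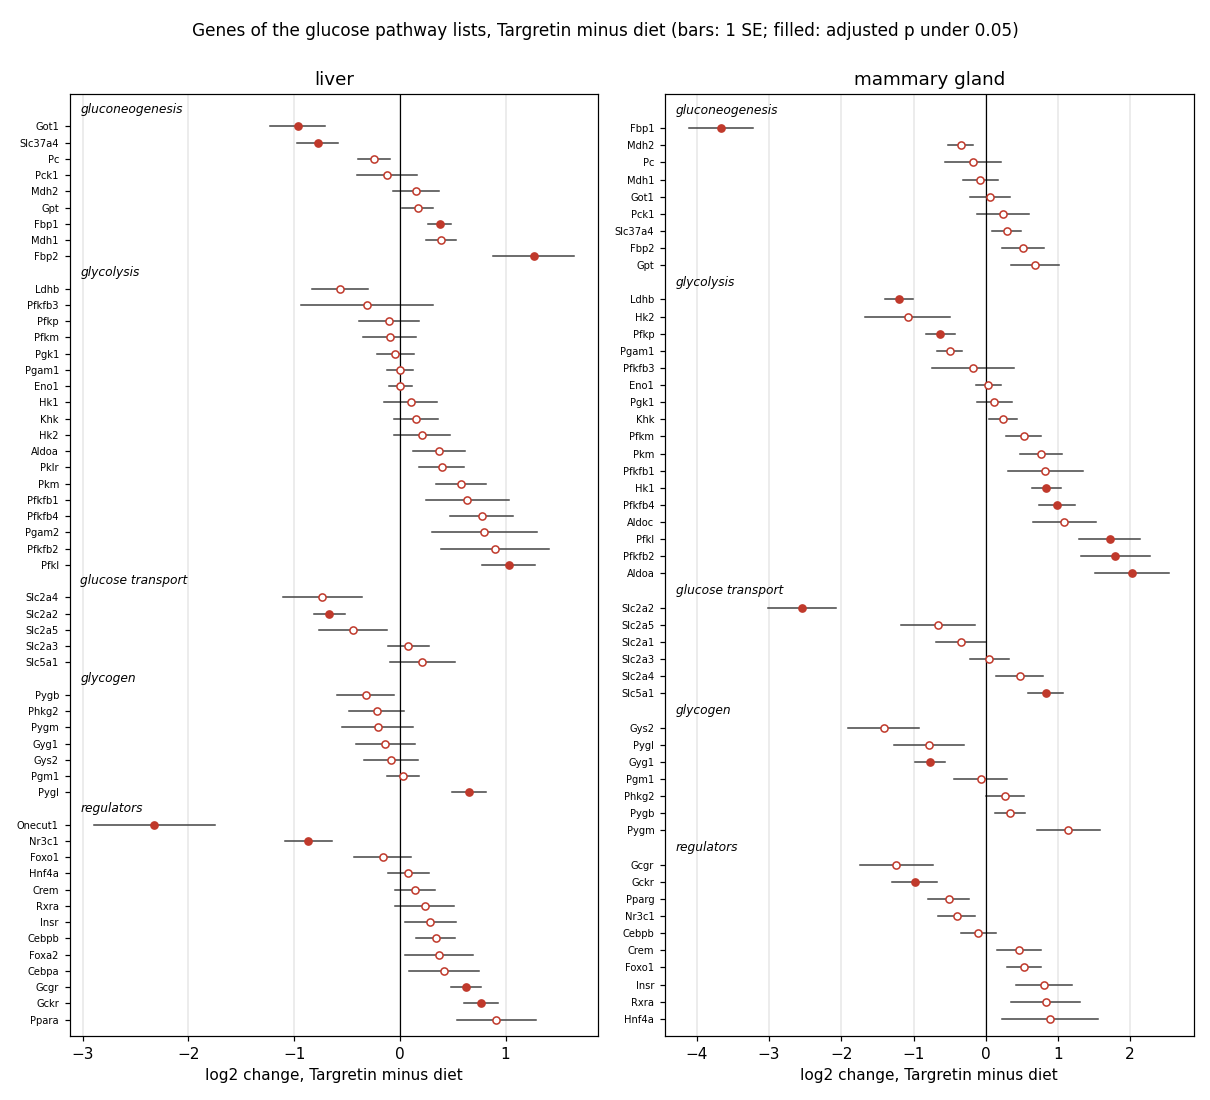
Log2 change with Targretin against diet (x axis; bars are 1 SE) of every tested gene of the 5 lists in liver and mammary gland; filled points pass at an adjusted p under 0.05. In mammary gland Fbp1 (-3.67) and Slc2a2 (-2.54) are the lowest points drawn, and Aldoa (2.03) the highest. Each gene is drawn by its tested probe set with the highest mean signal, so Aldoc by X06984cds_s_at (3.25) is not drawn.

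Genes whose signal was most like a member's were read across all arrays of the organ where the member was highest on diet, as a description over arrays that share agents. Over 15 liver arrays and 4968 candidate probe sets, Slc2a2 was closest to Tfrc (Pearson r = 0.92), Sord (0.88) and Gclc (0.88). Tfrc, the transferrin receptor, averaged 108 with Targretin and 498 on diet. Gclc, which limits glutathione synthesis, averaged 181 with Targretin and 1449 on diet, and Sord, sorbitol dehydrogenase, 8916 with Targretin and 17383 on diet. Fbp1 was closest to Crot (0.88), Amacr (0.88) and Decr2 (0.85), all of peroxisomal fatty acid handling. Crot averaged 1628 with Targretin and 522 on diet, Amacr 12996 with Targretin and 6121 on diet, and Decr2 5263 with Targretin and 2628 on diet. Pck1 was closest to Soat1 (0.87), P2rx6 (0.81) and Ptprm (0.80), and Pklr to Camk2d (0.81), Ndufa4l2 (0.76) and Rgn (0.75). Over 14 mammary arrays and 4979 candidate probe sets, Aldoc by M63656_s_at was closest to Ica1 (0.93), Lipa (0.92) and Lcn2 (0.92), and Lcn2 averaged 28863 with Targretin and 14076 on diet.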

How the data were processed

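RNA of 43 samples was measured on Affymetrix rat arrays, 1 array per sample. The deposited intensity values are MAS5 signals on a linear scale, per the submitters' processing notes; detection calls were not used here. The table holds 8799 probe sets, 59 of them controls that were dropped; 3 values in the table were 0. Of the 8740 probe sets left, 7006 had 1 symbol in the platform annotation, 308 had several and 1426 none. Groups came from the sample labels.

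Each organ was fitted with limma 3.58.1 in R 4.3.3 (lmFit, eBayes with trend; two-sided) on log2 of signal plus 38.1, the 10th percentile of all values, over 6059 probe sets for mammary gland, 6084 for liver and 5935 for lung. Organ contrasts came from 1 fit of all 43 arrays over 6921 probe sets, those tested in any organ. A list gene was represented by its tested probe set with the highest mean signal. A look-alike was represented by its tested probe set with the highest correlation. Named list genes were up to 4 passing by smallest p per list and comparison; Pfkfb4, Pfkfb2 and Pfkp in mammary gland were named beyond that, after their values were seen. The members, lists and tests were chosen with earlier results of these data known. The fit was tested on simulated data. Arrays of one number in different groups were checked for pairing: 3 of 18 pairs for mammary gland, 0 of 21 for liver and 6 of 18 for lung had correlated residuals above 0.1, so they were not paired; across organs 12 of 41 pairs did (highest 0.257), and the block in the fit of all arrays was an alternative. The number of array pairs sharing most of their values was 0. Promoter sequences are from RefSeq, where all 5 genes matched by symbol. Signals near 0 and the number of arrays limit the precision.

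The alternatives were quantile normalization, no filter, a pseudocount 4 times larger, array number as a block, array weights, only the 2 groups compared, leaving out the arrays in doubt (Targretin mammary gland 3, Targretin lung 2, 4HPR liver 4 and diet liver 2), and leaving out each array.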

Additional observations from a re-analysis of the deposited data

Results flagged for a closer look

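Of 26 groups of 4 arrays of the member probe sets, 1 held an array far from the others, and chance alone flags about 1 in 20. This was Pck1 in 4HPR liver, where array 4 read 13934.9 and the gap to the next array was 0.849 of the group's range.

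The change with Targretin against diet differed between organs for 4 member probe sets in the test of the difference itself. The adjusted p was 3.72e-05 for Fbp1, 0.00272 for Slc2a2, 0.0135 for Aldoc (X06984cds_s_at) and 0.0196 for Pklr. Pklr missed the signal rule for testing in lung and mammary gland, Slc2a2 in lung, and Aldoc (X06984cds_s_at) in liver and lung. Fbp1 was higher in liver and lower in mammary gland. Slc2a2 was lower in both; its mammary gland minus liver difference of -1.88 (adjusted p = 0.0255) was lost in 4 of 20 alternatives and was -0.64 (adjusted p = 0.345) with a larger pseudocount. Hepatocyte markers fell in the same mammary arrays, and their part was not tested.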

How the results depend on the processing

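Against diet, the calls of Slc2a2 with Targretin in liver and of Fbp1, Slc2a2 and Aldoc (X06984cds_s_at) with Targretin in mammary gland passed under all 14 alternatives tried. The 2 members passing for Targretin in liver became 1, with Fbp1 lost, in some settings. These were no filter, the fit of only these 2 groups and the replicate block, where Fbp1 stood at 0.358 (limma adjusted p = 0.0826). The cause of these losses was not tested. The count was 1 in place of 0 for 9cRA in liver (array weights), Targretin minus 4HPR in liver (quantile normalization), Targretin and 9cRA in lung (array weights) and the 4HPR change between organs (quantile normalization or array weights). It was 0 in place of 1 for Targretin minus 4HPR in lung with the replicate block, array weights, without the array in doubt and with only these 2 groups. For Targretin minus 9cRA in mammary gland it was 1 in place of 3 without the array in doubt and with only these 2 groups, and for the Targretin change between organs 2 in place of 4 without the arrays in doubt. The cause was not tested. Smaller moves were 4 in place of 3 for Targretin against diet in mammary gland (only these 2 groups), 2 in place of 3 for Targretin minus 9cRA there (larger pseudocount), 3 in place of 2 for Targretin minus 4HPR there (larger pseudocount, array weights, only these 2 groups), and 5 in place of 4 for mammary gland minus lung on diet (quantile normalization, array weights) and for the Targretin change between organs (quantile normalization, array weights, replicate block). The block changed no other count of members.

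Leaving out 1 array at a time gave 1 to 2 for Targretin and 0 to 1 for 9cRA against diet in liver, 0 to 1 for Targretin minus 4HPR in lung, 1 to 3 for Targretin minus 9cRA in mammary gland, 3 to 4 for mammary gland minus lung on diet, 3 to 5 for the Targretin change between organs and 0 to 1 for that of 4HPR; the other counts stayed the same. Signs turned only for values that did not pass. After quantile normalization the change of Fbp1 with 4HPR in liver was -0.0902 and the Slc2a2 difference of 9cRA from 4HPR in liver 0.00145. With 1 array left out, Pck1 in liver lay between -0.303 and 0.234 with Targretin, -0.300 and 0.0776 with 9cRA and -0.228 and 0.0199 with 4HPR, and in mammary gland with Targretin between -0.182 and 0.468. In liver Pklr lay between -0.0175 and 0.190 with 4HPR, the Fbp1 difference of Targretin from 9cRA between -0.0171 and 0.141, and the Slc2a2 difference of 9cRA from 4HPR between -0.176 and 0.0186. Aldoc by X06984cds_s_at lay between -0.119 and 0.693 for liver minus lung on diet. Slc2a2 and Fbp1 in Targretin mammary gland were near the low end of the signal scale, so the size of their change moved most with the pseudocount. The number of arrays, 3 or 4 a group, limits all of these tests.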
